A study of Mus musculus with 8 samples.

Results

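The genes described are 46 genes of the DNA replication machinery in mouse embryonic stem cells, taken by gene symbol from a table of 49641 gene entries, and each symbol had 1 entry. They cover origin recognition, the loading and activation of the MCM helicase, the replicative polymerases, the sliding clamp and its loader, single-strand binding, flap removal and ligation, and deoxynucleotide synthesis. The study measured polyA RNA by sequencing in 4 groups with 2 libraries each. The first group is Dgcr8 KO cells given siRNAs against Mbnl1 and Mbnl2 (siMbnl1/2), the second is Dgcr8 KO cells given a miR-294 mimic (miR-294), the third is mock-treated Dgcr8 KO cells (Dgcr8 KO), and the fourth is mock-treated wild-type cells (WT). All carry the labels V6.5, strain 129/C57BL/6 and mouse embryonic stem cells, and were cultured with serum and LIF. The reagents were used at 50 nM, 16 hours after plating. The WT columns are named V65 and the Dgcr8 KO columns ES1, so a line difference, if there is one, cannot be told apart from the genotype in Dgcr8 KO minus WT. The number of Dgcr8 KO clones and whether the libraries came from separate cultures are not given in the labels, so p-values measure the spread between these libraries, which may be technical. The labels name gelatin or irradiated fibroblast feeders without saying which sample had which.

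Before S phase the origin recognition complex, Cdc6 and Cdt1 load the ring of Mcm2 to Mcm7 onto DNA at origins, and geminin (Gmnn) blocks Cdt1 from doing so again. The kinase Cdc7 with its activator Dbf4 then allows Cdc45 and the GINS complex to join the ring, which becomes the active helicase. Pluripotent stem cells cycle rapidly with a short G1 phase. Dgcr8 is the RNA-binding partner of Drosha and is needed to make canonical microRNAs, so Dgcr8 KO stem cells lack them and proliferate slowly. miR-294 belongs to the miR-290 cluster, the main microRNA cluster of mouse embryonic stem cells, whose members with the same seed act on inhibitors of the G1 to S transition. Mbnl1 and Mbnl2 are muscleblind RNA-binding proteins that regulate splicing. The mature miR-294-3p is shown because its seed (bases 2 to 8, in capitals) defines the sites searched for among the replication genes, with the pair of cluster members that have the same seed. The sequences are from RefSeq, build GRCm38.p6, on the plus strand of chromosome 7 at chr7:3220691-3220712 for miR-294-3p, chr7:3218968-3218989 for miR-291a-3p and chr7:3220815-3220837 for miR-295-3p.
mmu-miR-294-3p: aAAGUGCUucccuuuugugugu
mmu-miR-291a-3p: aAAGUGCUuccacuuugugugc
mmu-miR-295-3p: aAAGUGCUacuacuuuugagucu

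Levels are given in FPKM, which divides a gene's fragments by its transcript length and by the size of the library. Read depth is unknown, so no counting interval can be given. The summed FPKM of a library lay between 473746 and 571508, and 12386 to 12860 genes reached 1 FPKM. Dgcr8 lay between 6.58 and 8.50 FPKM in the 6 libraries labelled Dgcr8 KO, against 22.9 and 21.9 FPKM in WT. These values cover the whole gene, and which part was deleted is not given in the labels. Mbnl2 averaged 12.8 ± 2.23 FPKM with siMbnl1/2, against 26.6 ± 2.79 FPKM in Dgcr8 KO (SD, n = 2 each), and was called lower. Mbnl1 averaged 6.80 ± 0.06 FPKM with siMbnl1/2 against 8.71 ± 1.00 FPKM in Dgcr8 KO and was not called (limma adjusted p = 0.158). With miR-294, Mbnl1 and Mbnl2 averaged 5.04 and 13.8 FPKM, and in WT 4.96 and 12.9 FPKM. Mbnl1 was thus higher with siMbnl1/2 than with miR-294 (limma adjusted p = 0.0165), and Mbnl2 was not called between these groups. The stem cell label held in every library, with 10 of 10 marker genes measured and a summed level of 5812 to 7606 FPKM. Dppa5a alone averaged 3117 FPKM in WT and 3978 FPKM in Dgcr8 KO. In Dgcr8 KO minus WT, Sox2, Nanog and Dppa5a were called higher and Pou5f1, Zfp42, Utf1 and Dppa4 lower. Esrrb, Klf4 and Tdgf1 were not called there. In miR-294 minus Dgcr8 KO, Pou5f1, Zfp42, Tdgf1, Utf1 and Dppa4 were called higher and Sox2, Nanog and Dppa5a lower. Esrrb and Klf4 were not called in that comparison. The 12 fibroblast markers summed to 5.10 to 7.53 FPKM, and 9 of them were below 1 FPKM in all libraries. All 8 primitive endoderm markers were detected, with a summed level of 24.3 to 31.2 FPKM with siMbnl1/2, 26.3 to 27.8 FPKM with miR-294 and 21.7 to 25.2 FPKM in Dgcr8 KO, against 184 to 185 FPKM in WT. This marker difference moves with each comparison against WT below, and its part in the results was not tested. The endoderm sum also hides opposite changes in miR-294 minus Dgcr8 KO. There Gata4 was called lower (log2 difference -0.97), and Gata6, Sox7, Dab2 and Lama1 higher (0.61, 0.97, 0.41 and 0.96). Gata6 and Dab2 stayed below 1 FPKM in these libraries. Sox17 and Col4a1 were not called, and Foxa2 was not tested. The 6 trophoblast markers summed to 61.7 to 80.2 FPKM with siMbnl1/2, 43.5 to 44.5 FPKM with miR-294, 58.3 to 66.4 FPKM in Dgcr8 KO and 66.9 to 71.8 FPKM in WT. This sum hides opposite changes. Krt8 averaged 30.3 FPKM in Dgcr8 KO against 56.9 FPKM in WT, and Tfap2c 28.1 against 8.50 FPKM. Eomes was also called lower and Gata3 higher in Dgcr8 KO minus WT, and Cdx2 and Elf5 were not tested.

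Most of the replication genes were lower in Dgcr8 KO than in WT cells, many were higher again with miR-294, and none was called with siMbnl1/2. All 46 passed the filter of a mean of at least 1 FPKM, with means over the 8 libraries from 5.95 to 202 FPKM, and a gene was called at an adjusted p under 0.05 in a limma fit over 12786 genes. Values after ± are standard errors of that fit unless SD is written, and p-values are two-sided. In Dgcr8 KO minus WT, 27 of the 46 fell and 5 rose, against 30.1% of all genes tested called lower and 29.6% called higher (59.8% in either direction). Their median log2 difference was -0.32, with a median of 0.00 over all genes. In miR-294 minus Dgcr8 KO, 20 rose and 6 fell, against 22.9% of all genes called higher and 29.2% called lower (52.2% in either direction), with a median of 0.19 beside -0.06 over all genes. In siMbnl1/2 minus Dgcr8 KO, 0 of 46 were called, against 1.11% of all genes (0.868% higher, 0.242% lower). Of the 46, 12 had an unadjusted limma p under 0.05, all lower. Beside them stood 2355 of the 12786 genes in either direction, and the number lower among these was not counted. These values depended on the setting: of all genes, 142 were called, against 650 without siMbnl1/2 replicate 2, 81 without Dgcr8 KO replicate 1, 15 without Dgcr8 KO replicate 2 and 4 in a fit of these 4 libraries alone. The 12 genes became 29 under median-of-ratios scaling, 18 under quantile normalization and 6 in the fit of these libraries alone. The matching numbers over all genes were not counted in these settings. In bulk RNA, fewer cells of a type, such as cells in S phase, and less RNA per cell cannot be told apart. Quantile normalization changed the split in Dgcr8 KO minus WT to 8 higher and 23 lower and the median of the 46 genes to -0.16. In miR-294 minus Dgcr8 KO it gave 15 higher and 7 lower, and a median of 0.086 for the 46 beside 0.015 over all genes.

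**Figure D1:**
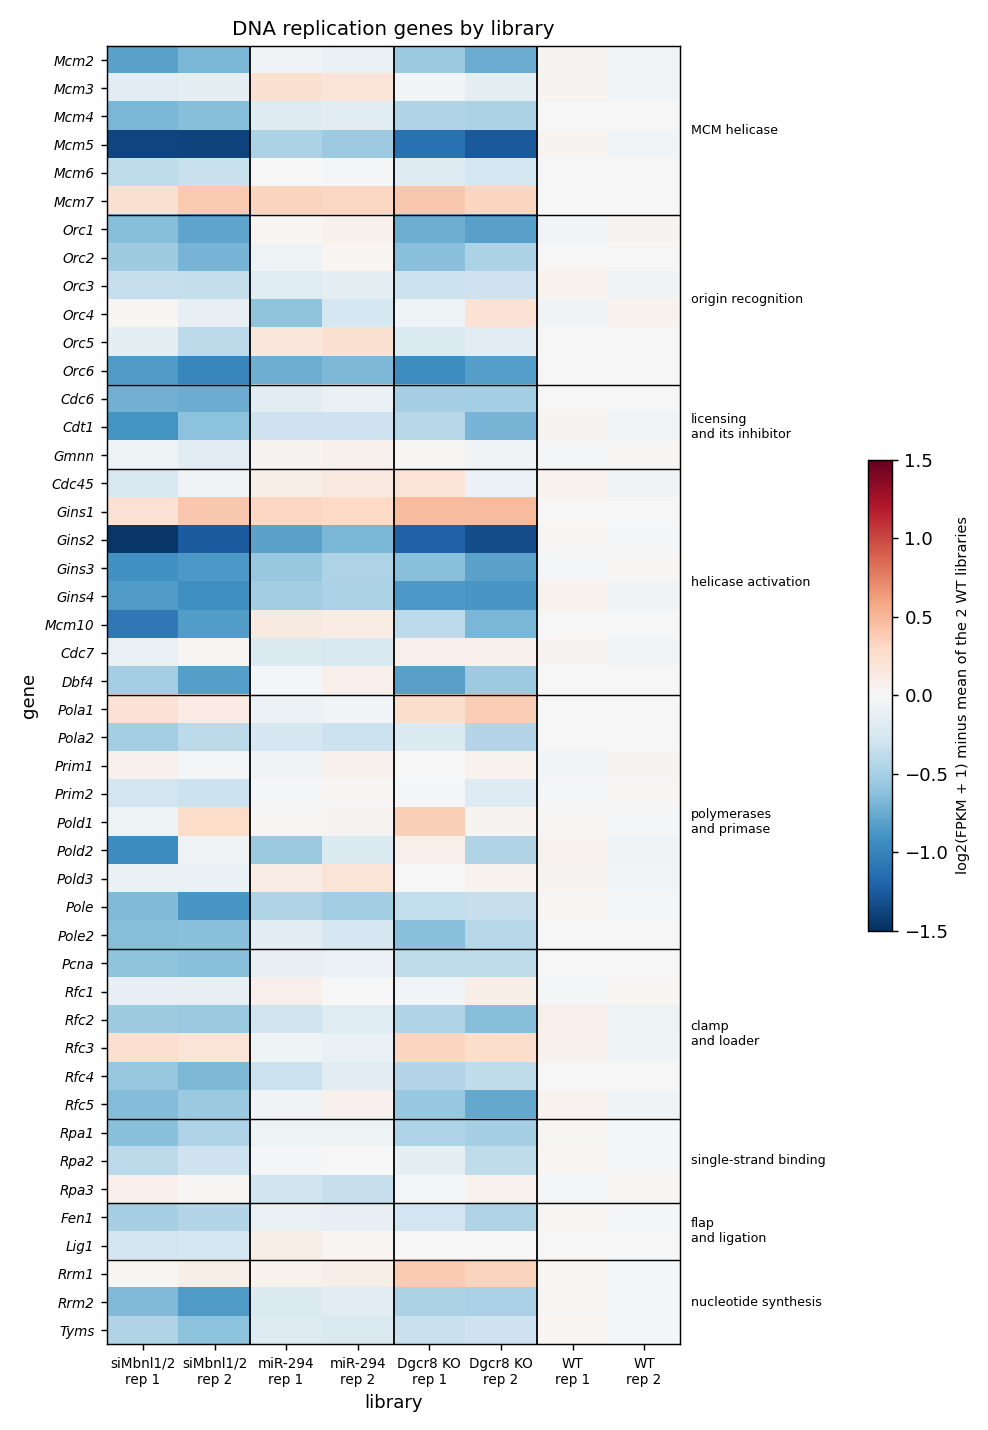
Level of each of the 46 replication genes in each of the 8 libraries, as log2(FPKM + 1) minus the mean of the 2 WT libraries (blue lower, red higher), with roles separated by horizontal lines and groups by vertical lines. Mcm5, Gins2, Orc6 and Gins4 are the darkest blue rows in the Dgcr8 KO libraries, and Mcm7 and Gins1 are red in all 6 libraries of Dgcr8 KO cells. Under quantile normalization 23 in place of 27 genes were called lower in Dgcr8 KO.

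Added together, the 46 genes held 2289 and 2344 FPKM with siMbnl1/2, 2926 and 2976 FPKM with miR-294, 2597 and 2484 FPKM in Dgcr8 KO and 3228 and 3151 FPKM in WT. This sum was 20.3% lower in Dgcr8 KO than in WT, and 16.1% higher with miR-294 than in Dgcr8 KO. As a share of all FPKM in a library, the genes held 0.448% and 0.454% with siMbnl1/2, 0.54% and 0.542% with miR-294, 0.517% and 0.524% in Dgcr8 KO and 0.565% and 0.558% in WT. The libraries of each group lay together on both measures, with siMbnl1/2 at the bottom and WT at the top. The roles differed in size. In Dgcr8 KO minus WT the summed level of origin recognition genes was 30% lower and that of helicase activation genes 29.9% lower, whereas that of polymerases and primase was 5.61% lower.

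The MCM helicase. Mcm2 to Mcm7 form the ring that unwinds DNA, with 1 copy of each subunit. In Dgcr8 KO minus WT, 4 of the 6 fell, Mcm7 rose and Mcm3 was not called, and in miR-294 minus Dgcr8 KO, 5 of 6 rose. Mcm5 (chromosome 8, 75109569 to 75128439, mm10) had 93.4 and 92.7 FPKM with siMbnl1/2, 175 and 168 FPKM with miR-294, 112 and 102 FPKM in Dgcr8 KO cells and 251 and 238 FPKM in WT cells. The groups did not overlap, and the levels with miR-294 lay between those of Dgcr8 KO and WT. Its log2 difference was -1.19 ± 0.07 (adjusted p = 1.27e-05) in Dgcr8 KO minus WT and 0.68 ± 0.07 (adjusted p = 0.000229) in miR-294 minus Dgcr8 KO. Mcm2 had 71.0 and 77.1 FPKM with siMbnl1/2, 119.7 and 116 FPKM with miR-294, 84.1 and 73.6 FPKM in Dgcr8 KO cells and 128 and 120.5 FPKM in WT cells. Here the miR-294 libraries came close to the WT libraries, and both stood apart from the other 4. Mcm2 differed by -0.65 ± 0.08 (adjusted p = 0.000376) in Dgcr8 KO minus WT and by 0.58 ± 0.08 (adjusted p = 0.000987) in miR-294 minus Dgcr8 KO. Mcm4 had a log2 difference of -0.46 and then 0.28 in the same comparisons, and Mcm6 of -0.23 and 0.22.

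Mcm7 went the other way. It had 198 and 222 FPKM with siMbnl1/2, 213 and 209.8 FPKM with miR-294, 223 and 211 FPKM in Dgcr8 KO cells and 169 and 169 FPKM in WT cells, so that all 6 libraries of Dgcr8 KO cells lay above both WT libraries (Dgcr8 KO minus WT 0.36 ± 0.07, adjusted p = 0.00298). It was not called in miR-294 minus Dgcr8 KO (adjusted p = 0.666), but was under quantile normalization (-0.31, adjusted p = 0.00896). Mcm3 was not called in Dgcr8 KO minus WT (-0.08, adjusted p = 0.27) and rose with miR-294 (0.29 ± 0.06, adjusted p = 0.00548). The order of the subunits differed between groups. Mcm5 was the most abundant subunit per length in WT (245 FPKM), and Mcm7 in the other groups (210 FPKM with siMbnl1/2, 211 FPKM with miR-294 and 217 FPKM in Dgcr8 KO). The ratio of Mcm7 to Mcm5 FPKM was 2.12 and 2.39 with siMbnl1/2, 1.22 and 1.25 with miR-294, 1.98 and 2.08 in Dgcr8 KO and 0.673 and 0.71 in WT. Mcm4 was the least abundant subunit in every group. Some of the MCM calls depended on scaling. Under quantile normalization Mcm6 had 0.06 in Dgcr8 KO minus WT (adjusted p = 0.403) and Mcm3 was called higher at 0.21. There the calls of Mcm3, Mcm4 and Mcm6 with miR-294 were also lost (adjusted p = 0.356, 0.0791 and 0.571). The call of Mcm6 was also lost without either WT library (0.0725 and 0.0759) and, with miR-294, without either miR-294 library (0.0816 and 0.095).

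**Figure D2:**
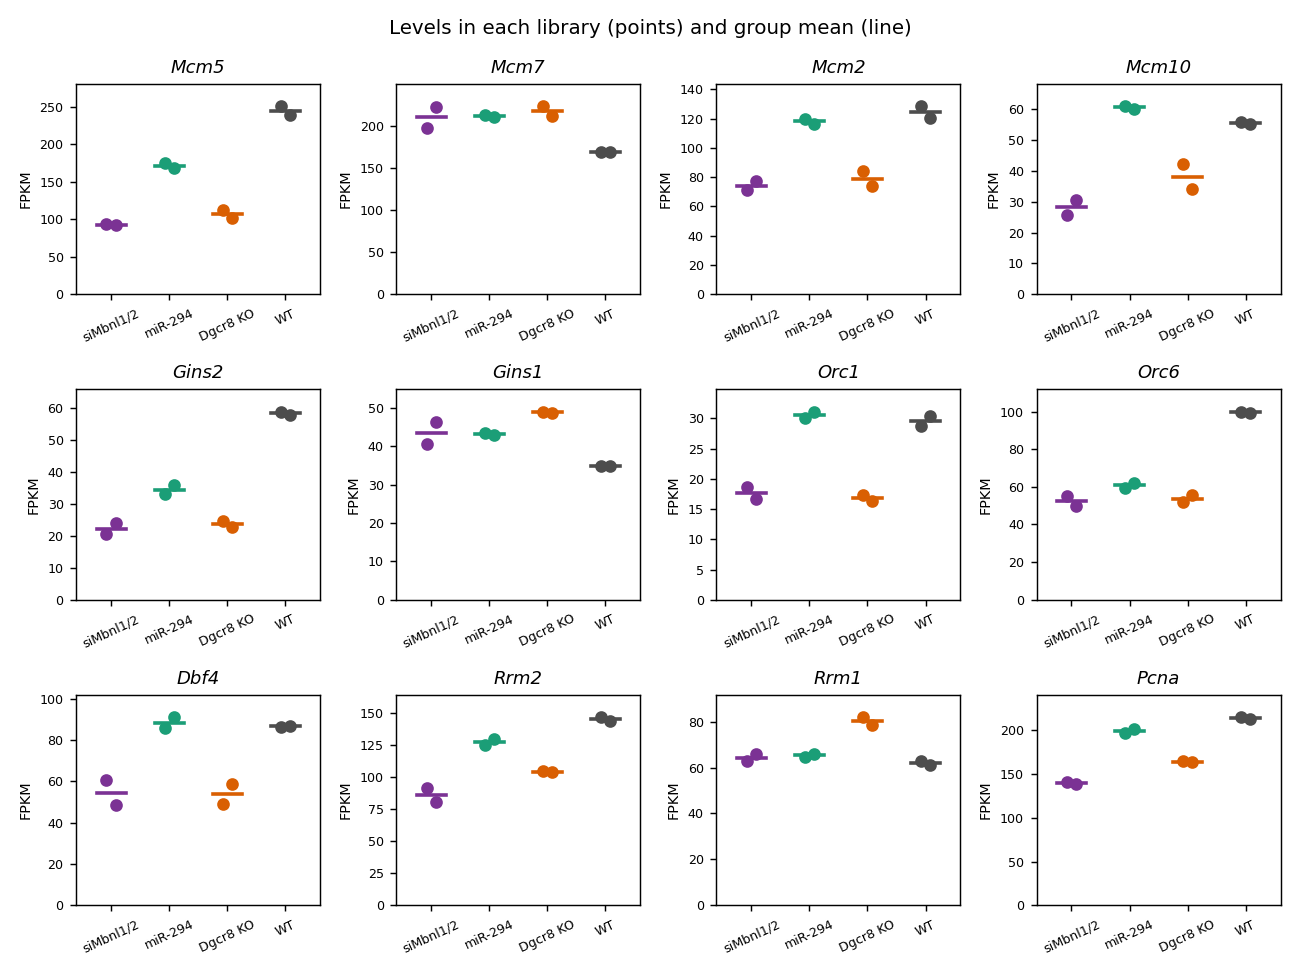
FPKM of 12 replication genes in each library (points, 2 per group) with the group mean (line), on axes that start at 0. Mcm5, Mcm2, Orc1, Dbf4 and Gins2 are lower in Dgcr8 KO than in WT and higher with miR-294 than in Dgcr8 KO, Mcm7 and Gins1 lie above WT in all 3 groups of Dgcr8 KO cells, and Orc6 is at most 62.1 FPKM in those groups against 99.9 and 99.3 FPKM in WT.

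Origin recognition and licensing. Orc1 to Orc6 form the complex that marks origins, and Orc1 is its cell-cycle-regulated subunit. In Dgcr8 KO minus WT, 4 of the 6 fell and none rose, and in miR-294 minus Dgcr8 KO, 3 rose and Orc4 fell. Orc1 (chromosome 4, 108579423 to 108614833) had 18.6 and 16.7 FPKM with siMbnl1/2, 30.1 and 31.1 FPKM with miR-294, 17.4 and 16.3 FPKM in Dgcr8 KO cells and 28.8 and 30.4 FPKM in WT cells. The miR-294 and WT libraries overlapped, well above the other 4. Orc1 showed the largest rise of the 46 genes with miR-294, 0.82 ± 0.08 (adjusted p = 0.000192), after -0.78 ± 0.08 (adjusted p = 0.000137) in Dgcr8 KO minus WT. Orc6 (chromosome 8, 85299632 to 85308278) had 54.9 and 49.9 FPKM with siMbnl1/2, 59.5 and 62.1 FPKM with miR-294, 51.7 and 55.9 FPKM in Dgcr8 KO cells and 99.9 and 99.3 FPKM in WT cells. The 6 libraries of Dgcr8 KO cells all lay well below WT. The difference was -0.88 ± 0.07 (adjusted p = 5.54e-05) in Dgcr8 KO minus WT and 0.17 ± 0.07 (adjusted p = 0.0792) in miR-294 minus Dgcr8 KO, which was not called. The ratio of Orc6 to Orc1 FPKM was 2.96 and 2.99 with siMbnl1/2, 1.98 and 2.00 with miR-294, 2.98 and 3.43 in Dgcr8 KO and 3.47 and 3.27 in WT, lowest with miR-294.

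Orc4 had 31.0 and 28.0 FPKM with siMbnl1/2, 19.8 and 25.3 FPKM with miR-294, 29.1 and 35.8 FPKM in Dgcr8 KO cells and 29.5 and 31.7 FPKM in WT cells, and with miR-294 it fell by 0.51 ± 0.14 on the log2 scale (adjusted p = 0.0166). The spread within its groups was wide, and the call was lost without miR-294 replicate 1 or Dgcr8 KO replicate 2 (adjusted p = 0.0951 to 0.111, log2 difference -0.37 to -0.34). Orc2 had differences of -0.55 in Dgcr8 KO minus WT and 0.53 with miR-294. Orc5 rose with miR-294 (0.38), a call lost without miR-294 replicate 2 (adjusted p = 0.0675), and Orc3 fell in Dgcr8 KO minus WT (-0.32), a call lost without WT replicate 1 (0.0558). Of the licensing factors, Cdc6 fell in Dgcr8 KO (-0.51) and rose with miR-294 (0.38). Cdt1 fell in Dgcr8 KO (-0.56) and had 0.25 ± 0.12 (adjusted p = 0.103) with miR-294, not called (0.29 under median-of-ratios scaling, adjusted p = 0.0354, and 0.39 without Dgcr8 KO replicate 1, adjusted p = 0.0371). Gmnn, the inhibitor of Cdt1, had 76.0 and 70.6 FPKM with siMbnl1/2, 81.8 and 83.4 FPKM with miR-294, 80.4 and 76.5 FPKM in Dgcr8 KO and 78.2 and 80.7 FPKM in WT. It was not called in any of the 5 comparisons, but quantile normalization gave 0.25 in Dgcr8 KO minus WT (adjusted p = 0.0103). In siMbnl1/2 minus miR-294 it was called lower under median-of-ratios scaling (-0.30, adjusted p = 0.00758) and without siMbnl1/2 replicate 1 (-0.22, adjusted p = 0.0263).

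Helicase activation. The GINS complex has the subunits Gins1 to Gins4 in equal number, and in Dgcr8 KO minus WT 3 of them fell while Gins1 rose. Gins2 (chromosome 8, 120578633 to 120589304) had 20.6 and 23.9 FPKM with siMbnl1/2, 33.1 and 35.9 FPKM with miR-294, 24.7 and 22.7 FPKM in Dgcr8 KO cells and 59.0 and 57.9 FPKM in WT cells. Its Dgcr8 KO level was 59.5% lower than WT, with -1.27 ± 0.09 (adjusted p = 2.95e-05), the largest fall of the 46 genes. With miR-294 it rose by 0.53 ± 0.09 (adjusted p = 0.0023) and stayed below WT. Gins1 had 40.8 and 46.4 FPKM with siMbnl1/2, 43.6 and 43.1 FPKM with miR-294, 49.1 and 48.7 FPKM in Dgcr8 KO cells and 34.9 and 34.9 FPKM in WT cells, and all 6 libraries of Dgcr8 KO cells exceeded both WT libraries (Dgcr8 KO minus WT 0.47 ± 0.07, adjusted p = 0.00111). It was not called with miR-294, except under quantile normalization (-0.25, adjusted p = 0.0267). The ratio of Gins1 to Gins2 FPKM was 1.98 and 1.94 with siMbnl1/2, 1.32 and 1.2 with miR-294, 1.99 and 2.15 in Dgcr8 KO and 0.592 and 0.604 in WT. Thus Gins2 was the more abundant of the pair in WT, and Gins1 in the other groups. Gins4 had -0.87 ± 0.07 (adjusted p = 3.73e-05) in Dgcr8 KO minus WT and 0.37 ± 0.07 (adjusted p = 0.00265) with miR-294. Gins3, the least abundant of the 46 genes, had -0.72 ± 0.10 (adjusted p = 0.000563) in Dgcr8 KO minus WT and 0.20 ± 0.10 (adjusted p = 0.131) with miR-294, not called (0.41 under quantile normalization, adjusted p = 0.00702).

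Dbf4 (chromosome 5, 8396973 to 8422716) and Cdc7, activator and catalytic subunit of the same kinase, had different calls. Dbf4 had 60.5 and 48.4 FPKM with siMbnl1/2, 85.8 and 91.1 FPKM with miR-294, 49.0 and 59.0 FPKM in Dgcr8 KO cells and 86.3 and 87.1 FPKM in WT cells. Its miR-294 and WT libraries lay together, above the other 4, with -0.68 ± 0.12 (adjusted p = 0.00208) in Dgcr8 KO minus WT and 0.71 ± 0.12 (adjusted p = 0.00226) in miR-294 minus Dgcr8 KO. Cdc7 was not called in Dgcr8 KO minus WT (0.07) and with miR-294 had -0.29 ± 0.08 (adjusted p = 0.0177), a call lost without any one of the 4 libraries concerned (adjusted p = 0.0511 to 0.0994) and under quantile normalization (0.162). Mcm10, which takes part in activating the helicase, had 25.8 and 30.5 FPKM with siMbnl1/2, 61.0 and 60.1 FPKM with miR-294, 42.1 and 34.1 FPKM in Dgcr8 KO cells and 55.8 and 55.2 FPKM in WT cells. Its differences were -0.54 ± 0.11 (adjusted p = 0.00473) in Dgcr8 KO minus WT and 0.66 ± 0.11 (adjusted p = 0.00232) with miR-294, and the siMbnl1/2 libraries were the lowest of all. Cdc45, the helicase cofactor, was not called in any of the 5 comparisons, but was lower in siMbnl1/2 minus miR-294 under median-of-ratios scaling and quantile normalization (-0.38 and -0.34, adjusted p = 0.0115 and 0.0237).

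Polymerases and primase. This role had the smallest change in summed level in Dgcr8 KO minus WT. There 3 of 9 fell (33.3%) and 1 rose (11.1%), beside 30.1% and 29.6% of all genes tested. With miR-294 1 rose and 1 fell (11.1% each), beside 22.9% and 29.2% of all genes. The shares of this role were thus near or below those of all genes. Its median log2 difference in Dgcr8 KO minus WT was -0.11 (0.04 under quantile normalization). Pola1, the catalytic subunit of polymerase alpha, had 21.7 and 20.3 FPKM with siMbnl1/2, 17.4 and 18.03 FPKM with miR-294, 22.5 and 24.4 FPKM in Dgcr8 KO cells and 18.5 and 18.6 FPKM in WT cells. It was higher in Dgcr8 KO than in WT by 0.32 ± 0.07 (adjusted p = 0.00758), and with miR-294 it had -0.39 ± 0.07 (adjusted p = 0.004). Without WT replicate 1 the first of these had an adjusted p of 0.0523. Pole and Pole2, subunits of the leading-strand polymerase epsilon, both fell in Dgcr8 KO (-0.36 and -0.53), and Pole2 rose with miR-294 (0.32) while Pole had -0.13 ± 0.09 (adjusted p = 0.246). The call of Pole in Dgcr8 KO minus WT was lost without WT replicate 1 (0.0564), and that of Pole2 with miR-294 without either miR-294 library or Dgcr8 KO replicate 1 (0.0578 to 0.12). Pola2, the accessory subunit of polymerase alpha, fell in Dgcr8 KO (-0.32), a call lost without Dgcr8 KO replicate 2 or either WT library (0.0767 to 0.0892). The primase subunits Prim1 and Prim2 and the polymerase delta subunits Pold1, Pold2 and Pold3 were called in neither comparison. Pold2 was the most variable of the 46 genes, at 36.6 and 68.6 FPKM with siMbnl1/2, 48.0 and 61.7 FPKM with miR-294, 75.4 and 52.0 FPKM in Dgcr8 KO and 74.2 and 68.4 FPKM in WT.

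Clamp, loader, single-strand binding and lagging-strand genes. Pcna (chromosome 2, 132249162 to 132253314), the sliding clamp, had 141 and 139 FPKM with siMbnl1/2, 197 and 202 FPKM with miR-294, 164 and 164 FPKM in Dgcr8 KO cells and 215 and 213 FPKM in WT cells. The groups did not overlap, with -0.38 ± 0.05 (adjusted p = 0.000569) in Dgcr8 KO minus WT and 0.28 ± 0.05 (adjusted p = 0.00343) with miR-294. Both calls were lost under quantile normalization (-0.05, adjusted p = 0.496, and 0.02, adjusted p = 0.769). A pseudogene copy of Pcna has its own entry, reaching 17.8 FPKM, and reads could be split between them. Of the clamp loader, Rfc5 had 64.7 and 69.0 FPKM with siMbnl1/2, 98.2 and 107 FPKM with miR-294, 68.4 and 59.7 FPKM in Dgcr8 KO cells and 105 and 98.7 FPKM in WT cells. The miR-294 and WT libraries overlapped and exceeded the rest, with -0.67 ± 0.09 (adjusted p = 0.000432) in Dgcr8 KO minus WT and 0.67 ± 0.09 (adjusted p = 0.000635) with miR-294.

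Rfc3 moved opposite to Rfc5, with 32.5 and 31.2 FPKM with siMbnl1/2, 25.97 and 25.1 FPKM with miR-294, 34.1 and 32.8 FPKM in Dgcr8 KO cells and 28.4 and 25.9 FPKM in WT cells. Its differences were 0.29 ± 0.07 (adjusted p = 0.00975) in Dgcr8 KO minus WT (0.0935 without WT replicate 2) and -0.38 ± 0.07 (adjusted p = 0.004) with miR-294. Rfc2 fell in Dgcr8 KO (-0.55) and rose with miR-294 (0.31), the second call lost without miR-294 replicate 2 or Dgcr8 KO replicate 2 (0.0915 to 0.131) and under quantile normalization (0.0875). Rfc4 fell in Dgcr8 KO (-0.41) and was not called with miR-294, and Rfc1, the large subunit, was not called in any of the 5 comparisons (in siMbnl1/2 minus miR-294 -0.28 under median-of-ratios scaling, adjusted p = 0.0195).

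Rpa1, the large subunit of the single-strand binding complex RPA, fell in Dgcr8 KO (-0.48) and rose with miR-294 (0.41). Rpa3, the small subunit, had 64.4 and 61.7 FPKM with siMbnl1/2, 49.2 and 47.8 FPKM with miR-294, 59.7 and 63.1 FPKM in Dgcr8 KO cells and 59.6 and 62.1 FPKM in WT cells. The Dgcr8 KO and WT libraries overlapped, and with miR-294 it fell by 0.33 ± 0.06 on the log2 scale (adjusted p = 0.00383), below all other libraries. Rpa2 fell in Dgcr8 KO (-0.25 ± 0.09, adjusted p = 0.0383), a call lost in 8 of 12 alternatives, among them leaving out Dgcr8 KO replicate 2 or either WT library (0.0935 to 0.179). With miR-294 it was called under median-of-ratios scaling (0.28) and without Dgcr8 KO replicate 1 (0.36) alone. Fen1, the flap nuclease, fell in Dgcr8 KO (-0.37) and rose with miR-294 (0.25), a rise not called without either miR-294 library or Dgcr8 KO replicate 2 (0.0907 to 0.112). Lig1, the ligase that joins Okazaki fragments, was called in neither comparison, except that quantile normalization gave 0.27 in Dgcr8 KO minus WT (0.00664).

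Nucleotide synthesis. Ribonucleotide reductase, which makes deoxynucleotides, has a large subunit, Rrm1, and a small subunit, Rrm2. The subunits moved in opposite directions in Dgcr8 KO minus WT and in miR-294 minus Dgcr8 KO. In siMbnl1/2 minus Dgcr8 KO both had lower means and neither was called. Rrm1 (chromosome 7, 102441695 to 102469771) had 62.6 and 65.9 FPKM with siMbnl1/2, 64.6 and 66.0 FPKM with miR-294, 81.9 and 78.4 FPKM in Dgcr8 KO cells and 63.1 and 61.0 FPKM in WT cells. It was highest in the 2 mock Dgcr8 KO libraries, with 0.36 ± 0.06 (adjusted p = 0.00164) in Dgcr8 KO minus WT and -0.29 ± 0.06 (adjusted p = 0.006) with miR-294 (0.0528 without miR-294 replicate 1). Rrm2 had 91.2 and 80.2 FPKM with siMbnl1/2, 125 and 129 FPKM with miR-294, 104 and 104 FPKM in Dgcr8 KO cells and 147 and 144 FPKM in WT cells. The groups did not overlap, with -0.48 ± 0.07 (adjusted p = 0.000928) in Dgcr8 KO minus WT and 0.29 ± 0.07 (adjusted p = 0.0126) with miR-294. The second was not called without either miR-294 library (0.0521 to 0.0876) or under quantile normalization (0.297). The ratio of Rrm2 to Rrm1 FPKM was 1.46 and 1.22 with siMbnl1/2, 1.93 and 1.96 with miR-294, 1.27 and 1.32 in Dgcr8 KO and 2.32 and 2.35 in WT. Tyms, which makes thymidylate, fell in Dgcr8 KO (-0.32), with an adjusted p of 0.05 without WT replicate 1 and 0.67 under quantile normalization.

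Across Dgcr8 KO minus WT and miR-294 minus Dgcr8 KO, which share the Dgcr8 KO libraries, the genes were counted by their call in each, together with the call in miR-294 minus WT. Of the 46, 15 were lower in Dgcr8 KO, higher with miR-294 and not called against WT, among them Mcm2, Orc1, Dbf4 and Rfc5. A further 3 had the same pattern and remained lower than WT with miR-294, namely Mcm5, Gins2 and Gins4. Another 4 were lower in Dgcr8 KO, not called with miR-294 and lower than WT with miR-294, namely Orc6, Gins3, Pole and Rfc4, and 5 were lower in Dgcr8 KO and called in neither of the other comparisons. Without miR-294 replicate 1, fewer of the 46 genes were called lower with miR-294, and fewer of all genes tested as well. The reverse pattern, higher in Dgcr8 KO, lower with miR-294 and not called against WT, was shown by 3 genes, Pola1, Rfc3 and Rrm1. Mcm7 and Gins1 were higher than WT both in Dgcr8 KO and with miR-294. The remaining genes called were Mcm3 (higher with miR-294 and against WT), Orc5 (higher with miR-294), Rpa3 (lower with miR-294 and against WT), and Orc4 and Cdc7 (lower with miR-294). In 9 genes none of these comparisons was called. Not being called does not show that the levels were equal. How many of all genes tested had each pattern was not counted, so these counts do not show a pattern particular to the 46 genes. Over all genes, 59.8% were called in Dgcr8 KO minus WT, 52.2% in miR-294 minus Dgcr8 KO and 26.5% in miR-294 minus WT.

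**Figure D3:**
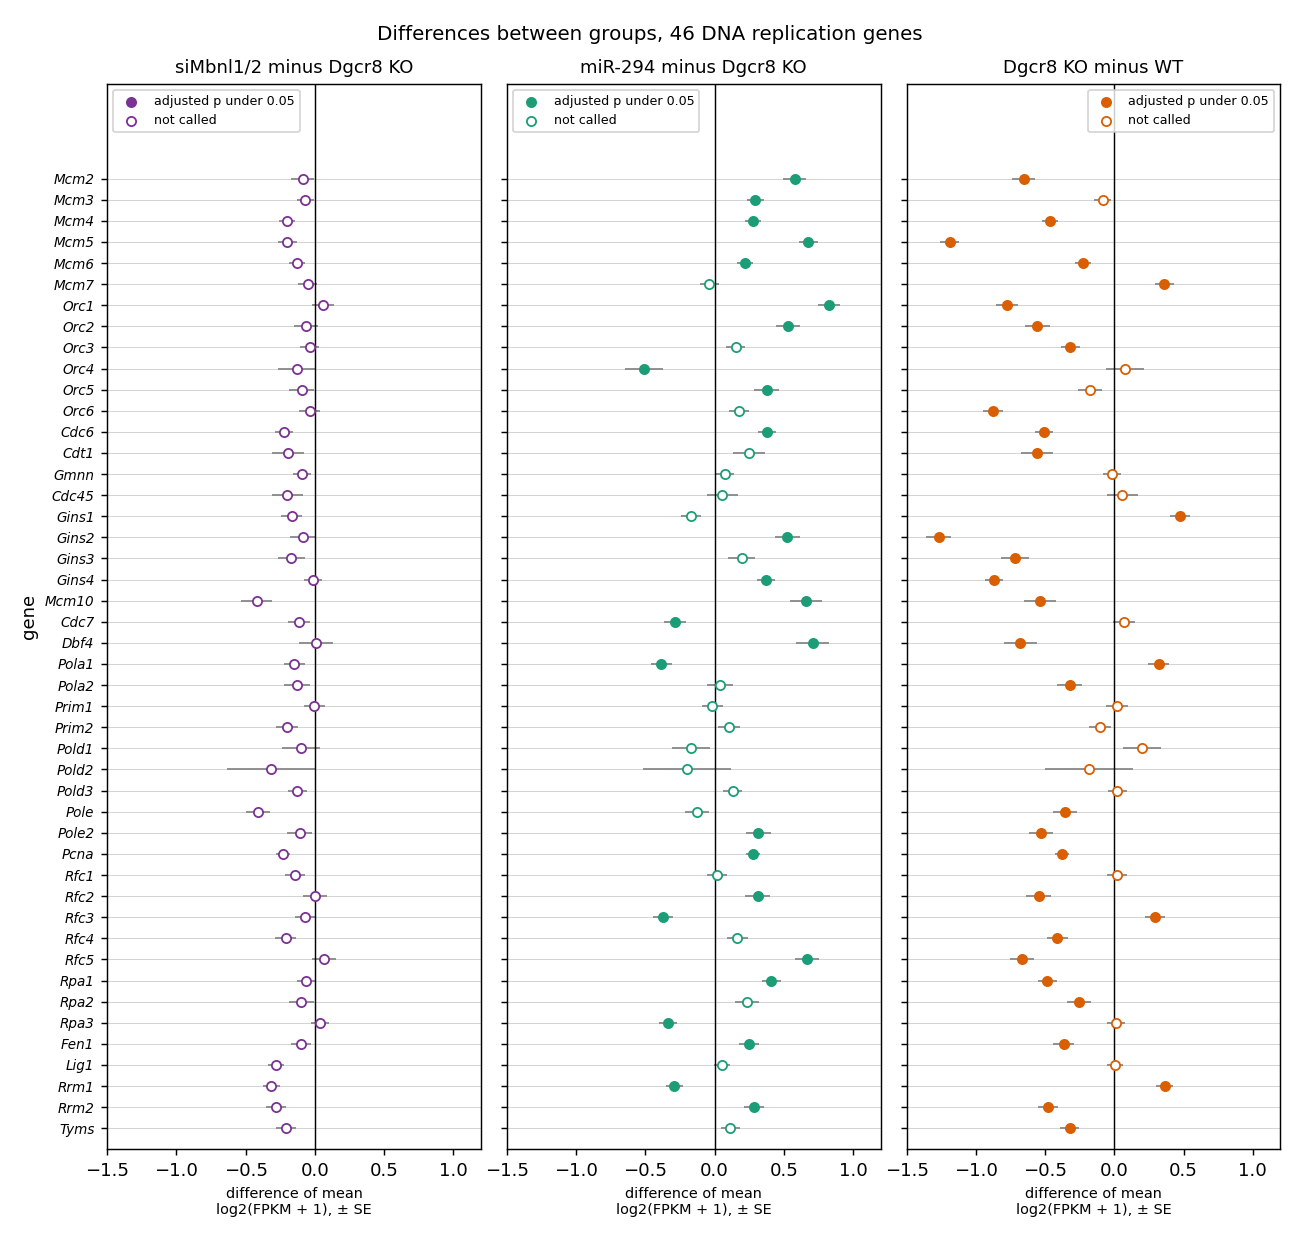
Log2 difference of each of the 46 genes in siMbnl1/2 minus Dgcr8 KO, miR-294 minus Dgcr8 KO and Dgcr8 KO minus WT, as the difference of mean log2(FPKM + 1) with its limma SE (n = 2 libraries per group); filled points have an adjusted p under 0.05. In the first panel no point is filled, in the second 20 are filled to the right and 6 to the left of 0, and in the third 5 to the right and 27 to the left.

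Set against WT directly, the cells with miR-294 had 8 replication genes lower and 3 higher, against 14.7% and 11.8% of all genes tested (26.5% in either direction), with a median of -0.08 beside -0.05 over all genes. The largest were Gins2 at -0.74 ± 0.09 (adjusted p = 0.00143), Orc6 at -0.70 ± 0.07 (adjusted p = 0.000737), Gins3 at -0.52 ± 0.10 (adjusted p = 0.0083), Mcm5 at -0.51 ± 0.07 (adjusted p = 0.00207), Gins4 at -0.50 ± 0.07 (adjusted p = 0.00194) and Pole at -0.48 ± 0.09 (adjusted p = 0.00636), all lower. Thus 3 of the 4 GINS subunits were below WT. The genes above WT were Mcm7 at 0.32 ± 0.07 (adjusted p = 0.0139), Gins1 at 0.30 ± 0.07 (adjusted p = 0.0229) and Mcm3 at 0.21 ± 0.06 (adjusted p = 0.0411). All 3 of these calls were lost when any one of the miR-294 or WT libraries was left out, with adjusted p from 0.0811 to 0.101 for Mcm7, 0.113 to 0.135 for Gins1 and 0.132 to 0.25 for Mcm3. Without 1 library, 4 to 6 genes were called lower: Rfc4 and Rpa3 were lost without any one of the 4 (0.0839 to 0.3 and 0.0641 to 0.096), Gins3 without miR-294 replicate 1 or either WT library (0.0622 to 0.075) and Pole without miR-294 replicate 2 or WT replicate 1 (0.0584 and 0.0586). The background fell too, to between 608 and 722 genes lower of the 12786, in place of 1882. Fitted on these 4 libraries alone, 20 replication genes were lower and 5 higher, with 3652 of all genes lower and 2659 higher.

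The siRNAs against Mbnl1 and Mbnl2 did not bring a call in any of the 46 genes against the Dgcr8 KO cells they were given to. Of the 46, 41 had a negative log2 difference, beside 5264 negative and 7491 positive among the 12786 genes tested. The median of the 46 was -0.12, and the median of all genes was 0.04. The lowest p-values belonged to Rrm1, at -0.31 ± 0.06 (adjusted p = 0.058), Lig1 at -0.28 ± 0.06 (adjusted p = 0.0601) and Pole at -0.41 ± 0.09 (adjusted p = 0.065), where the libraries of the groups did not overlap. Mcm10 had the largest difference, -0.42 ± 0.11 (adjusted p = 0.118). Scaled by the median of ratios, Pcna, Lig1 and Rrm1 were called lower (-0.32, -0.37 and -0.40), and under quantile normalization Lig1 and Rrm1 (-0.33 and -0.38). Lower calls rose over all 12786 genes too, to 112 under the first scaling and 88 under the second, from 31 without rescaling. Without siMbnl1/2 replicate 1, Pole and Rrm2 had log2 differences of -0.52 and -0.37. Without siMbnl1/2 replicate 2, Lig1 and Rrm1 had -0.29 and -0.35. The siMbnl1/2 and Dgcr8 KO groups had the wider spread, with a median SD over all genes of 0.121 and 0.102 on the log2 scale, against 0.0487 with miR-294 and 0.0462 in WT.

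Between the transfected groups, siMbnl1/2 minus miR-294, 31 of the 46 genes were lower and 4 higher, against 21% and 33% of all genes tested (54% in either direction). Their median was -0.33 beside 0.10 over all genes, a background that became -0.01 under median-of-ratios scaling and -0.02 under quantile normalization, where the median of the 46 was -0.46 and -0.27. Of all genes called, 61.1% were higher, against 48.7% and 48.1% under these scalings. Mcm10 differed most, at -1.08 ± 0.11 (adjusted p = 0.000245), followed by Mcm5 at -0.88 ± 0.07 (adjusted p = 7.36e-05), Orc1 at -0.76 ± 0.08 (adjusted p = 0.000231), Dbf4 at -0.70 ± 0.12 (adjusted p = 0.00231), Mcm2 at -0.67 ± 0.08 (adjusted p = 0.000489) and Gins2 at -0.61 ± 0.09 (adjusted p = 0.0011). These genes have their library values above, and in each the siMbnl1/2 libraries lay below both miR-294 libraries. The genes higher with siMbnl1/2 were Orc4 at 0.38 ± 0.14 (adjusted p = 0.0473), Rpa3 at 0.37 ± 0.06 (adjusted p = 0.00226), Rfc3 at 0.31 ± 0.07 (adjusted p = 0.00953) and Pola1 at 0.24 ± 0.07 (adjusted p = 0.03). Of the 35 calls in this comparison, 22 held in all 12 alternatives. Among the lower genes, Orc3 lost its call in 9 of the 12, Orc6 in 8, Pole in 5, and Cdt1, Rfc2 and Rpa2 in 3 each. Prim2 and Tyms lost theirs in 2, and Gins3 and Pold3 in 1. Of the 4 higher genes, Rpa3 alone kept its call in all 12 alternatives. Orc4 lost it without either siMbnl1/2 library or miR-294 replicate 1 (0.0616 to 0.282), Pola1 without siMbnl1/2 replicate 1 or either miR-294 library (0.0883 to 0.158), and Rfc3 without miR-294 replicate 2 (0.0709). Without either miR-294 library fewer of the 46 genes were called in each direction, and fewer of all genes tested as well.

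Mcm7, one of the genes above WT in all Dgcr8 KO cells, also carries microRNAs. In GENCODE M21 (mm10), intron 13 of its 15-exon transcript on the minus strand of chromosome 5 (138164583 to 138172422) holds Mir25 (138165321 to 138165404), Mir93 (138165523 to 138165610) and Mir106b (138165737 to 138165818). These hairpins are cut from the primary transcript by Drosha and Dgcr8. The mature miR-93-5p (chr5:138165574-138165596, minus strand) and miR-106b-5p (chr5:138165787-138165807, minus strand) are shown because their seed, in capitals, holds all but the last base of the miR-294 seed with 1 more A before it.
mmu-miR-93-5p: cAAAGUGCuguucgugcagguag
mmu-miR-106b-5p: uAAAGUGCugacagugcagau
Whether the level of Mcm7 RNA is tied to the processing of these hairpins was not tested. Exons of Mcm7 also overlap Ap4m1 and Cops6 on the other strand, and 10 other replication genes overlap a coding gene in this way (Orc2, Orc4, Orc6, Cdc45, Gins2, Rfc2, Rfc4, Rfc5, Fen1 and Lig1). The libraries keep the strand, but whether the strand was used in quantification is not given in the sources used here, so values of these genes are uncertain to that extent. Exons of Pole2 overlap the coding gene Gm49384 on the same strand, where strand cannot separate the reads, so its values are uncertain as well.

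The promoters of the genes were read for motifs, since E2F factors and NF-Y are known regulators of S-phase genes. RefSeq promoters (GRCm38.p6, 250 bases before to 50 after the start, 300 in all) were at hand for 38 of the 46 genes. An E2F-type motif (TTTGGCGC, TTTCCCGC, TTTGGCGG, TTTGCCGC or TTTCGCGC, on either strand) was in 18 of the 38 promoters, 47.4%, against 562 of 9251 genes tested, 6.08%. In the 250 upstream bases alone it was in 10 of the 38, 26.3%, against 463 of 9251, 5.0%. CCAAT, the NF-Y motif, was in 60.5% against 43.5%, and CACGTG in 18.4% against 12.1%. Within the set, E2F-type motifs were in 10 of 22 genes lower in Dgcr8 KO and in 8 of the 16 others, and in 7 of 16 genes higher with miR-294 and 11 of the 22 others. The shares were thus close whichever way the genes were split. Mcm5, lower in Dgcr8 KO, and Mcm7, higher there, both hold the motif. A match is a description of letters and not of binding. The 250 upstream bases are shown for the genes with the largest changes with miR-294, Orc1 (chr4:108579204-108579453, plus strand), Dbf4 (chr5:8422717-8422966, minus strand) and Mcm5 (chr8:75109259-75109508, plus strand). Capitals mark E2F-type motifs and CCAAT on either strand. In Mcm5 an E2F-type match on the plus strand and one on the minus strand overlap, and Dbf4 has no match in these bases.
Orc1: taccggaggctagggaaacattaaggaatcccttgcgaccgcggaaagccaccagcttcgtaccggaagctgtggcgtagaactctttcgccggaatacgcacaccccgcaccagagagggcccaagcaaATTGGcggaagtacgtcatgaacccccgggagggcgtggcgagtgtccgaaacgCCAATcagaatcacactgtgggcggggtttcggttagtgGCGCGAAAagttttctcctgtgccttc
Dbf4: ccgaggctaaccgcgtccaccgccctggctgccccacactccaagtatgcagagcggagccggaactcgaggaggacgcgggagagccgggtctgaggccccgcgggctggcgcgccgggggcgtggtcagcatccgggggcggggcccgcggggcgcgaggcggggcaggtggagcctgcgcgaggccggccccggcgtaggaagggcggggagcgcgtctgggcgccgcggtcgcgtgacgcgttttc
Mcm5: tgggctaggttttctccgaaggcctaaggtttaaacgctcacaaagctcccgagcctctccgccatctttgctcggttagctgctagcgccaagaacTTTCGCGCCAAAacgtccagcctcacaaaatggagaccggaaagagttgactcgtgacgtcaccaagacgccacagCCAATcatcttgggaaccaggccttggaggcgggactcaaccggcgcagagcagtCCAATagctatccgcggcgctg

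Sites for the miR-294 seed were searched in 3' UTRs of GENCODE M21. The letters AGCACTT, which pair with bases 2 to 8 of miR-294-3p, were in 5 of 46 replication genes, 10.9%, against 2019 of 11504 genes tested, 17.6%. The UTRs of the replication genes were shorter, with a median of 625 bases against 1136, and per kilobase there were 0.113 against 0.136 sites. The 5 genes were Cdc6, Gins3, Rfc2, Rpa2 and Tyms. None of the 6 genes lower with miR-294 had a site, and 2 of the 20 higher with it did (Cdc6 and Rfc2). The shorter letters GCACTT were in 3 of the 6 genes lower, 50.0%, and in 7 of the 20 higher, 35.0%. They were in 32.6% of the replication genes against 33.0% of genes tested, with 0.473 against 0.315 per kilobase. Of the 5 genes with the steepest falls with miR-294 in the other lists below, picked after their values were seen, Rrm2b (-2.17), Top2b (-1.09) and Polk (-0.73) had 1 site each for the longer letters, and Primpol (-0.90) and Samhd1 (-0.76) had none. Anln, which also fell by 0.73, was not searched. The UTRs of the 5 were longer than the median of genes tested, at 3293 bases in Rrm2b, 4996 in Top2b, 1480 in Polk, 2008 in Primpol and 1866 in Samhd1. Rrm2b, an alternative small subunit of ribonucleotide reductase, fell most. The sites of Cdc6 (chr11:98921443-98921449, plus strand), which rose, and of Rrm2b (chr15:37926865-37926871, minus strand), which fell, are shown with 10 bases on each side and the match in capitals.
Cdc6: ctgtgatcccAGCACTTgggaaataga
Rrm2b: ttttgtcataAGCACTTaagatggcat

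Other genes of DNA synthesis were read from lists by function. Where a gene of these lists has a pair of values, they are log2 differences in Dgcr8 KO minus WT and then in miR-294 minus Dgcr8 KO. Of all genes tested, 30.1% were called lower and 29.6% higher in Dgcr8 KO minus WT, and 22.9% higher and 29.2% lower with miR-294. Of 20 genes of nucleotide supply, 14 fell (70%) and 3 rose (15%) in Dgcr8 KO minus WT, and 10 rose (50%) and 3 fell (15%) with miR-294. Rrm2b had 10.4 and 13.4 FPKM with siMbnl1/2, 2.18 and 2.38 FPKM with miR-294, 14.3 and 13.2 FPKM in Dgcr8 KO cells and 2.62 and 2.94 FPKM in WT cells. The siMbnl1/2 and Dgcr8 KO libraries stood far above the rest, with 1.97 ± 0.13 (adjusted p = 2.06e-05) in Dgcr8 KO minus WT and -2.17 ± 0.13 (adjusted p = 4.57e-05) with miR-294. Against WT the cells with miR-294 had -0.20 ± 0.13 (adjusted p = 0.284), not called. The ratio of Rrm2b to Rrm2 FPKM was 0.114 and 0.167 with siMbnl1/2, 0.0175 and 0.0184 with miR-294, 0.137 and 0.127 in Dgcr8 KO and 0.0179 and 0.0205 in WT. Samhd1, which breaks down deoxynucleotides, moved as Rrm2b did (0.67 and -0.76). Nme1, a nucleoside diphosphate kinase, had -1.30 and 1.05, Shmt1, a folate-cycle enzyme, had -1.28 and 0.71, and Gart, an enzyme of purine synthesis, had 0.86 with miR-294. Of 12 genes of replication-coupled chromatin assembly, 8 fell and Dnmt1 rose in Dgcr8 KO (0.40), though 3 fell under quantile normalization, and 6 rose and Asf1b fell with miR-294 (-0.48), with 5 and 2 under quantile normalization. Nasp, a histone chaperone, had 186 and 161 FPKM with siMbnl1/2, 397 and 403 FPKM with miR-294, 200.4 and 218 FPKM in Dgcr8 KO cells and 389.6 and 382 FPKM in WT cells, with -0.88 ± 0.08 (adjusted p = 8.2e-05) in Dgcr8 KO minus WT and 0.93 ± 0.08 (adjusted p = 0.000129) with miR-294. The other chromatin genes with large changes were Asf1a (-0.55 in Dgcr8 KO minus WT) and Hells (0.76 with miR-294).

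Of 22 tested genes of origin firing and fork protection, 10 fell and 4 rose in Dgcr8 KO minus WT (6 and 4 under quantile normalization), and 5 rose and 5 fell with miR-294 (9 and 4 under median-of-ratios scaling, 6 and 1 under quantile normalization). Tipin, a fork protection factor, had -0.95 and 0.69. Ticrr, which helps to load Cdc45, rose with miR-294 (0.77), and Dscc1, of an alternative clamp loader, rose in Dgcr8 KO (0.56). Of 19 tested genes of further polymerases, clamp and Okazaki fragment processing, 4 fell (21.1%) and 5 rose (26.3%) in Dgcr8 KO. With miR-294, 4 rose (21.1%) and 6 fell (31.6%), or 8 and 6 under median-of-ratios scaling. The shares without rescaling were near or below those of all genes. Top2b, a topoisomerase, had 0.75 and -1.09, Primpol had -0.90 with miR-294, and Rnaseh1, which removes RNA from hybrids, had -0.86 and 0.75. Of 30 mitosis genes, which act later in the cycle, 11 fell (36.7%) and 6 rose (20%) in Dgcr8 KO (8 and 9 under quantile normalization). With miR-294, 8 rose (26.7%) and 6 fell (20%), or 11 and 5 under median-of-ratios scaling. Ccnb1, the mitotic cyclin, had -0.996 and 0.93, and Anln, a cytokinesis protein, had 0.96 and -0.73. In siMbnl1/2 minus Dgcr8 KO no gene of these 5 lists was called by limma, beside 1.11% of all genes tested. Ssrp1, of the origin firing list and named after its values were seen, was called lower under median-of-ratios scaling (-0.32, adjusted p = 0.0469) and quantile normalization (-0.30, adjusted p = 0.0447), with -0.24 and an adjusted p of 0.114 otherwise. Without rescaling, the origin firing list had 6 of 22 genes with an unadjusted limma p under 0.05 and the further polymerase list 5 of 19. The nucleotide supply, chromatin assembly and mitosis lists had 3 of 20, 1 of 12 and 1 of 30. Over all genes tested it was 2355 of 12786.

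**Figure D4:**
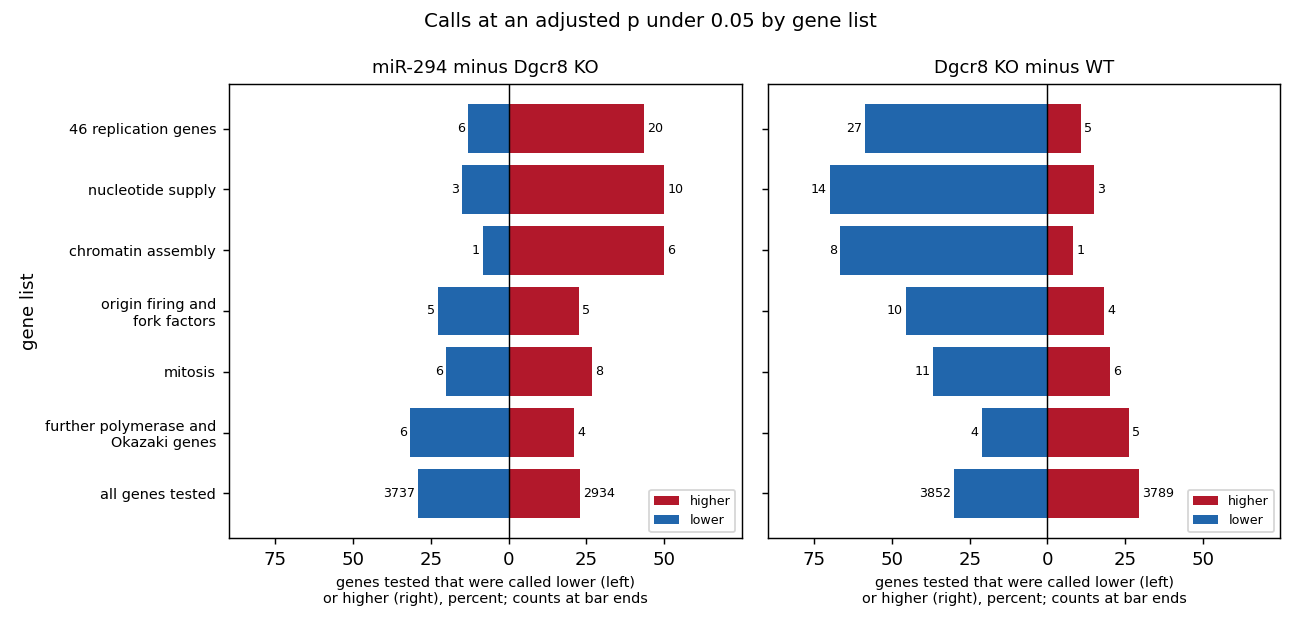
Share of the tested genes of each list called higher (right, red) or lower (left, blue) at an adjusted p under 0.05 in miR-294 minus Dgcr8 KO and in Dgcr8 KO minus WT, with counts at the bar ends and all genes tested in the bottom row. In Dgcr8 KO minus WT the lower share was 58.7% of the 46 replication genes and 70% of the nucleotide supply genes, beside 30.1% of all genes, and under quantile normalization 23 of the 46 and 11 of the 20 were lower.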

How the data were processed

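RNA from 8 libraries of mouse embryonic stem cells was sequenced with strand-keeping libraries, per the labels. The authors deposited 1 table of FPKM values for 49641 gene entries, made with STAR 2.5.0, Cufflinks 2.2.1 and build mm10, per the submitters' processing notes, which give no role or order. Counts and depth are not given in the sources used here, so only the number of libraries sets the precision stated.

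Genes with a mean of at least 1 FPKM (12786) were fitted on log2(FPKM + 1), which understates changes of low genes, with limma 3.58.1 in R 4.3.3. The fit had a mean per group over all 8 libraries, a variance trend and robust moderation, with Benjamini-Hochberg adjustment over all genes for each of 5 comparisons. The script was tested on simulated data. The genes and lists were chosen with earlier results of these data known. Values per library are given mainly for the 6 genes with the largest called changes in each direction of each comparison, and for each other list at most 2 per direction are named; Gmnn, Pold2 and the genes given by log2 difference only complete their role. Of the 46 genes, 40 had the same identifier version in GENCODE M21 and 44 the same coordinates. Alternatives were another pseudocount, filter, scaling or variance model, fewer libraries and a replicate block.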

Additional observations from a re-analysis of the deposited data

How the results depend on the processing

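Over 12 alternatives per comparison, the 104 calls of replication genes gave 1248 values, of which 1111 kept direction and call, 136 kept direction only and 1 reversed, and 63 calls held in every alternative. The reversal was Mcm6 in Dgcr8 KO minus WT, at 0.0576 under quantile normalization. The cause was not tested. Counts that moved by over 1.5 times were 8 higher in Dgcr8 KO minus WT under quantile normalization, where 25.8% in place of 15.6% of the calls were higher; 3 and 2 lower in siMbnl1/2 minus Dgcr8 KO under median-of-ratios scaling and quantile normalization; 2, 1 and 2 higher in siMbnl1/2 minus miR-294 without a filter, under median-of-ratios scaling and when fitted on its own 4 libraries; and 5 higher and 20 lower in miR-294 minus WT fitted on its own 4 libraries. Leaving out 1 library gave 4 to 5 higher and 21 to 27 lower in Dgcr8 KO minus WT, 14 to 21 higher and 3 to 5 lower in miR-294 minus Dgcr8 KO, 0 higher and 0 to 2 lower in siMbnl1/2 minus Dgcr8 KO, 2 to 3 higher and 22 to 29 lower in siMbnl1/2 minus miR-294, and 0 higher and 4 to 6 lower in miR-294 minus WT. In these fits the number of all genes called changed as well. The library left alone in its group is assumed there to vary like the other groups. In siMbnl1/2 minus Dgcr8 KO, 78.2% of all genes called were higher, against 45.1% and 57.1% under median-of-ratios scaling and quantile normalization. The other lists were recomputed under both scalings alone. Libraries with the same number correlated in their deviations at 0.191, 0.085, -0.0495, 0.00198 and 0.0574 in the 5 comparisons, so the numbers were not taken as pairs. With a replicate block the counts were 5 higher and 26 lower in Dgcr8 KO minus WT, 20 and 6 in miR-294 minus Dgcr8 KO, 0 and 0 in siMbnl1/2 minus Dgcr8 KO, 3 and 29 in siMbnl1/2 minus miR-294, and 2 and 7 in miR-294 minus WT. The block left 33 in place of 142 of all genes called in siMbnl1/2 minus Dgcr8 KO, and there were 61 without a filter. Without depth, counting error cannot be told apart from other spread.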
